A study of Mus musculus with 8 samples.

Results

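The transcripts of 49 genes whose products build ribosomes were compared by RNA-seq between 2 fractions of 4T1, a mammary carcinoma cell line of BALB/c mice. The members were chosen by symbol, from the transcription of ribosomal RNA (rRNA) to the assembly of both subunits, with earlier results of these data known. All 49 were found by Ensembl identifier among the 16341 genes with counts. There were 4 libraries of CD45-Sca1+ cells and 4 of CD45-Sca1- cells, sorted with an antibody against SCA1, a surface protein encoded by Ly6a, and neither fraction had received a treatment that the labels name. The source label gives the parental line, whereas the protocol describes the staining of 4T1 tumors, and the labels do not say whether the 4 libraries of a fraction came from separate cultures, animals or sorts. P-values therefore measure the spread between these libraries, which may be technical.

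Ribosomes are made in the nucleolus. RNA polymerase I (Pol I) transcribes one long precursor rRNA, small nucleolar RNA-protein particles (snoRNPs) guide its methylation and pseudouridylation, and a large particle called the small-subunit (SSU) processome folds and cuts it. The precursors of the 40S and 60S subunits are then matured by separate sets of assembly factors and exported to the cytoplasm. The genes of the pathway are often transcribed together, are well-known targets of the transcription factor MYC, and are abundant in growing tumor cells.

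The libraries held between 13561804 and 16968215 counts. Ly6a checked the sort, with 167 ± 20.2 normalized counts in the Sca1+ libraries and 1.79 ± 1.73 in the Sca1- libraries (mean ± SD, n = 4 each). Epithelial markers differed between the fractions in both directions, with 4 lower and 2 higher of the 9 tested. Epcam was at 3128 ± 101 and 3222 ± 35.2 normalized counts, Cdh1 (E-cadherin) and Cldn4 were at log2 fold changes (Sca1+ minus Sca1-) of -0.69 and -0.62, and Krt8 and Krt18 were at 0.31 and 0.38. Of 18 leukocyte markers, 12 were counted and 9 of these stayed at 10 or fewer counts in every library, Ptprc (CD45) among them at 2.32 ± 0.788 and 0.535 ± 0.619. The summed leukocyte list nevertheless ran from 200.5 to 229 in the Sca1+ and from 86.0 to 123 in the Sca1- libraries. The fibroblast list ran from 635 to 671 and from 395 to 468, and the endothelial list from 34.7 to 43.9 and from 42.3 to 66.2. All 3 leukocyte markers that could be tested were higher in Sca1+ (log2 fold changes of 0.94 to 2.38), as were 2 of 3 fibroblast markers. The 1 endothelial marker tested was lower (-0.60). Among all tested genes 31.3% were higher and 30.2% lower. Of 3 tested long RNAs kept in the nucleus, Neat1 and Kcnq1ot1 were higher in Sca1+ by 0.40 (adjusted p = 2.17e-04) and 0.91 (adjusted p = 2.54e-07) on the log2 scale. Malat1 did not pass the test (0.16, adjusted p = 0.214). The summed nuclear list overlapped between the fractions, from 12657 to 16482 in Sca1+ and from 10757 to 16161 in Sca1-. The Sca1+ libraries detected 14241 to 14352 genes and the Sca1- libraries 13777 to 14006. The part of all these in the results was not tested.

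Ribosome biogenesis transcripts were lower in the Sca1+ cells at nearly every step of the pathway. With edgeR's quasi-likelihood test and Benjamini-Hochberg adjustment over the 11717 genes tested, 46 of the 49 members were lower in Sca1+ at an adjusted p under 0.05, or 93.9% of them, and 1 was higher. Among all tested genes 61.5% passed the same rule, 30.2% lower and 31.3% higher. The log2 fold changes (Sca1+ minus Sca1-) of the members ran from -0.95 for Heatr1 to 0.35 for Imp3, with a median of -0.42 and quartiles of -0.52 and -0.31, so that the median member stood at 74.7% of its Sca1- level. The median of all tested genes was 0.01 and 9.56% of them lay below the members' median. The change was broad but modest in size: 14 members were lower by 0.5 or more on the log2 scale, a size that 6.26% of all tested genes reached in that direction, and no member was higher by as much, as 14.2% of all tested genes were. In bulk RNA, a lower share of cells that express these genes and less RNA per cell cannot be told apart.

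**Figure D1:**
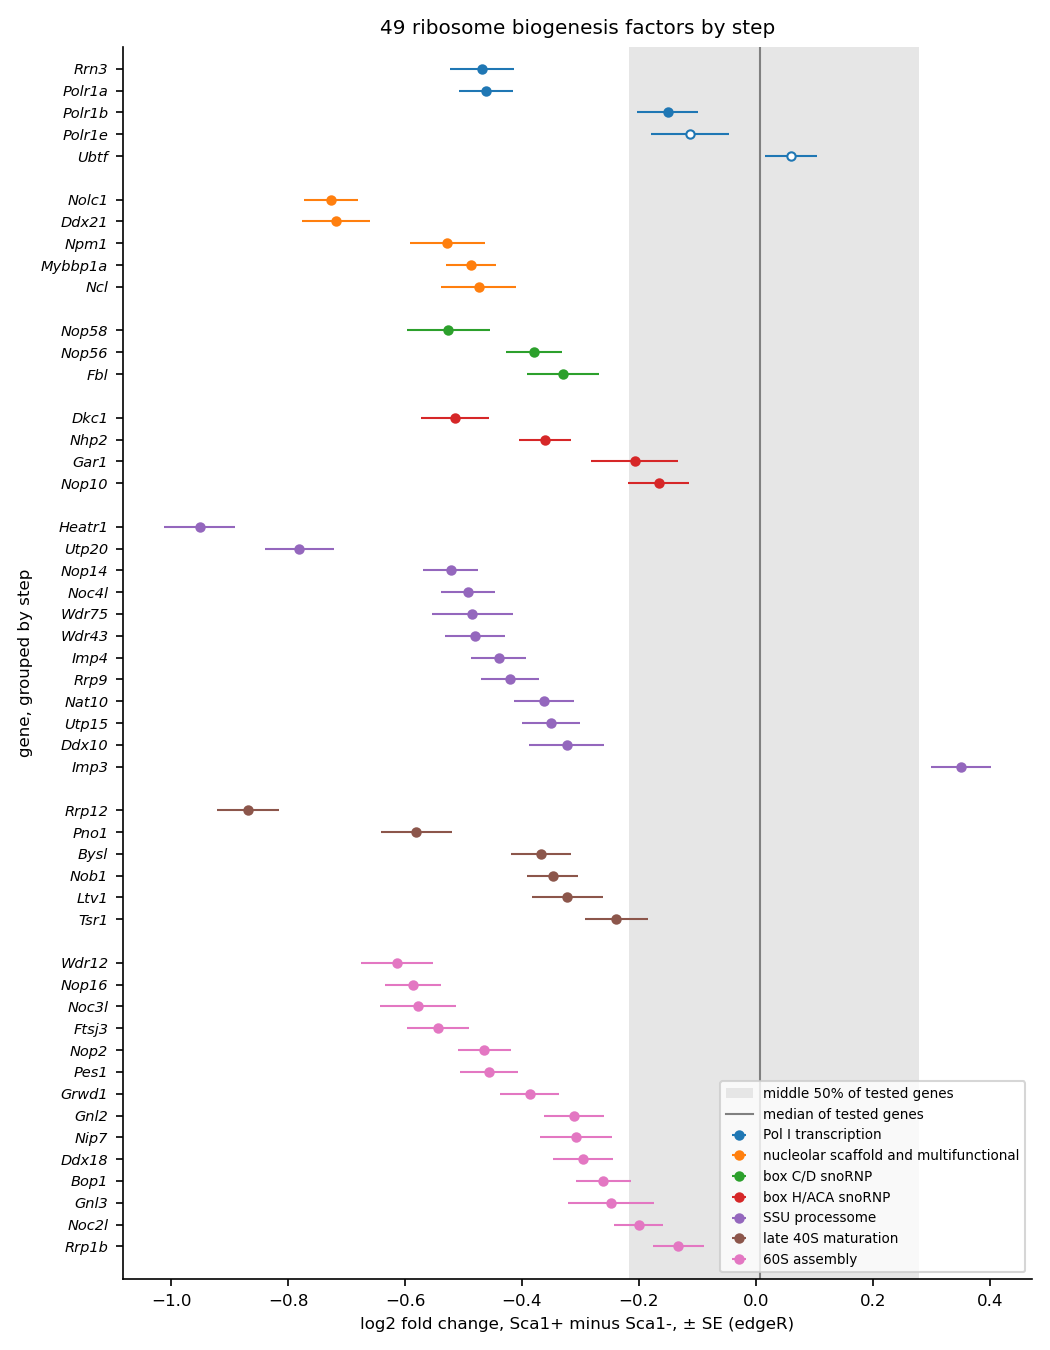
The log2 fold change (Sca1+ minus Sca1-, x axis) with its standard error is plotted for each of the 49 genes (y axis), coloured by step; open circles are genes that did not pass the test, and the grey band and line mark the quartiles and the median of all tested genes. Most members lie left of the band, with Heatr1 at -0.95 farthest left and Imp3 at 0.35 alone on the right.

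All 49 members were well covered, with between 359 and 48926 counts in a library and standard errors of 0.04 to 0.07 on the log2 scale. The Sca1+ and Sca1- libraries did not overlap for 46 members that were lower and for 1 that was higher, where 27.9% and 26.8% of all tested genes were separated in those directions. Gar1 and Ubtf were the 2 members whose libraries overlapped.

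The 4 Sca1+ libraries were not alike. Measured against the Sca1- mean, the median member stood at 77.1%, 75.6%, 69.7% and 73.8% in Sca1+ replicates 1 to 4, and at 99.5% to 101% in the 4 Sca1- libraries. Sca1+ replicate 3 was thus the lowest library, and it held the smallest Sca1+ value for 39 of the 49 members. It also stood apart over all genes, since its counts differed from those of the other 3 Sca1+ libraries by a chi-square per degree of freedom of 7.02 to 10.1, against 2.19 to 4.00 among those 3 and 1.92 to 5.68 within Sca1-. Without this library 46 members were again lower and 1 higher, with a median of -0.40.

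**Figure D2:**
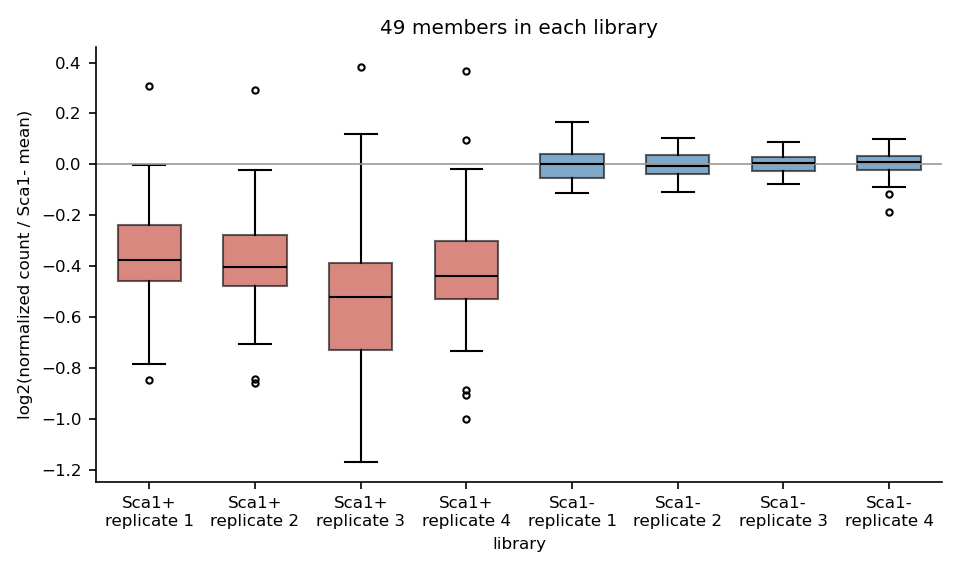
Each box holds the 49 members in 1 library (x axis), as the log2 ratio of the normalized count to the gene's Sca1- mean (y axis); the line is the median, the box the quartiles, the whiskers reach 1.5 box lengths and circles are genes beyond them. The Sca1+ medians lie between -0.52 in replicate 3 and -0.37 in replicate 1, and the Sca1- medians between -0.01 and 0.01.

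The Pol I transcription step had the smallest decrease in the median, -0.15, with 3 of its 5 members lower and 2 that did not pass the test. Rrn3, the initiation factor that brings Pol I to the rDNA promoter, had 1402, 1338, 1193 and 1294 normalized counts in Sca1+ replicates 1 to 4 and 1874, 1714, 1844 and 1867 in Sca1- replicates 1 to 4. Every Sca1+ library lay below every Sca1- library, and the log2 fold change was -0.47 ± 0.05 (SE, adjusted p = 9.54e-07). Polr1a, the largest subunit of the enzyme, was lower by a similar amount (-0.46 ± 0.05, adjusted p = 1.56e-07), whereas Polr1b, the second-largest subunit, was at 1339 ± 87.0 against 1500.0 ± 41.7 and changed by -0.15 ± 0.05 (adjusted p = 0.0186). The Polr1b call was lost under library-total scaling, where its adjusted p was 0.0830, and without Sca1+ replicate 4 (0.0664) or Sca1- replicate 3 (0.0509). Polr1e, a peripheral subunit, had 410.4, 411, 358 and 368 normalized counts in Sca1+ and 439, 419.9, 413 and 415 in Sca1-. Its libraries were separated by a small margin, but its log2 fold change of -0.11 (95% interval -0.24 to 0.02) did not pass the test (adjusted p = 0.152).

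Ubtf encodes UBF, the protein that keeps active rDNA in an open state, and it did not pass the test. Its normalized counts were 5865, 5782, 6369 and 6266 in Sca1+ and 5646, 6031, 5931 and 5883 in Sca1-. The groups overlapped, and the log2 fold change was 0.06 ± 0.04 (95% interval -0.03 to 0.15, adjusted p = 0.248). Its sign turned to -0.05 after correction for GC content, and under library-total scaling it passed the test at 0.10 (adjusted p = 0.0467).

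All 5 nucleolar scaffold and multifunctional proteins were lower, with a step median of -0.53. Nolc1, a phosphoprotein that accompanies snoRNPs, had 6044, 5936, 5378 and 5815 normalized counts in Sca1+ and 9303, 9823, 9653 and 9917 in Sca1-. These ranges lay far apart, with a log2 fold change of -0.73 ± 0.05 (adjusted p = 3.97e-10). Ddx21, an RNA helicase that works on both rRNA transcription and processing, was close to it at -0.72 ± 0.06 (adjusted p = 1.15e-08). Nucleolin (Ncl), which binds nascent precursor rRNA, was the member with the most counts, at 32726, 33733, 26692 and 35267 in Sca1+ and 46725, 44290.5, 44764 and 44207 in Sca1-. The groups were well separated although Sca1+ replicate 3 was low, and the log2 fold change was -0.47 ± 0.06 (adjusted p = 5.61e-06). Nucleophosmin (Npm1), the main protein of the outer nucleolar layer, had 9414, 9156, 7388 and 9174 against 13362, 11884, 13158 and 12701. Again no Sca1+ library reached the lowest Sca1- library, with a log2 fold change of -0.53 ± 0.06 (adjusted p = 1.80e-06). Mybbp1a, a nucleolar protein that also binds transcription factors, was lower by a like amount (-0.49 ± 0.04, adjusted p = 3.18e-08). Per kilobase of merged exon, Npm1 and Ncl were also the highest of the 49 in Sca1-, at 4794 and 4417 normalized counts, where the median member had 711.

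The box C/D snoRNP, which carries out 2'-O-methylation of rRNA, was lower in all 3 of its members. Nop58, one of the paired core proteins, had 5297, 5638, 4403 and 5879 normalized counts in Sca1+ and 8065, 7356, 8174 and 7239 in Sca1-. This separation corresponded to -0.53 ± 0.07 on the log2 scale (adjusted p = 5.55e-06). Nop56, its partner, changed by -0.38 ± 0.05 (adjusted p = 2.40e-06). Fibrillarin (Fbl), the methyltransferase, had 983, 931, 924 and 957 against 1326, 1252, 1179.9 and 1050.1. Here the gap between the groups was narrow because the Sca1- libraries spread widely, with a log2 fold change of -0.33 ± 0.06 (adjusted p = 1.88e-04).

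The 4 proteins of the box H/ACA snoRNP, which converts uridine in rRNA to pseudouridine, were all lower but by unequal amounts, with a median of -0.28. Dyskerin (Dkc1), the pseudouridine synthase, had 2608, 2795, 2251 and 2734 normalized counts in Sca1+ and 3820.0, 3748, 3772 and 3638 in Sca1-. Its Sca1+ libraries stayed well below the Sca1- libraries (-0.51 ± 0.06, adjusted p = 6.39e-07). Nop10, the smallest of the 4 proteins, had 837, 852, 834 and 825 against 877, 960.0, 967 and 989.6. The groups were separated by little, and its log2 fold change of -0.17 ± 0.05 (adjusted p = 0.0102) became -0.10 (adjusted p = 0.0713) after GC correction. Nhp2, another of the 4 proteins, was at -0.36 ± 0.04 (adjusted p = 1.88e-06). Gar1 was at -0.21 ± 0.07 (adjusted p = 0.0225), and this call was lost in more alternatives than that of any other member. Its adjusted p rose to 0.0698 under library-total scaling, to 0.0927 with limma on the deposited normalized table, to 0.0596 without Sca1+ replicate 2 and to 0.0866 without Sca1- replicate 1.

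The SSU processome held the only increase and, before GC correction, the largest decrease. Of its 12 members 11 were lower and 1 was higher, with a median of -0.46. Heatr1 (ENSMUSG00000050244, GRCm38 chr13:12395027-12440289, plus strand), the homolog of yeast Utp10 and part of the t-UTP complex that joins the precursor rRNA during its transcription, had 2003, 1991, 1604 and 1801 normalized counts in Sca1+ and 3669, 3511, 3568 and 3690.3 in Sca1-. The Sca1+ values lay near 51.7% of the Sca1- values, and the log2 fold change of -0.95 ± 0.06 (adjusted p = 4.66e-10) was lower than that of all but 1.02% of the tested genes. After GC correction Heatr1 was at -0.92, behind Rrp12 at -0.97. Utp20, a very large scaffold of the same particle, followed at -0.78 ± 0.06 (adjusted p = 4.20e-09). Of the other t-UTP members, Wdr43 had 3596, 3596, 3179 and 3636 against 5224, 4698, 4941 and 4855. Its groups were clearly separated at -0.48 ± 0.05 (adjusted p = 3.71e-07), as were those of Wdr75 at -0.48 ± 0.07 (adjusted p = 9.92e-06). Utp15 had 1014, 994, 922 and 958 against 1263, 1205, 1285 and 1251. It too was lower in each Sca1+ library, but by less (-0.35 ± 0.05, adjusted p = 9.04e-06).

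Imp3 and Imp4, which bind the U3 snoRNA in one trimeric complex with Mphosph10, went in opposite directions. Imp3 (ENSMUSG00000032288, GRCm38 chr9:56937475-56938398, plus strand) had 821, 813, 865 and 854 normalized counts in Sca1+ and 676, 649.9, 676 and 651 in Sca1-. All Sca1+ libraries were above all Sca1- libraries, with a log2 fold change of 0.35 ± 0.05 (adjusted p = 1.29e-05). Imp4 (GRCm38 chr1:34439851-34449356, plus strand) had 1335, 1284, 1288 and 1284 against 1690.4, 1743, 1799 and 1873. It was lower by an amount typical of the members (-0.44 ± 0.05, adjusted p = 3.58e-07). After GC correction Imp3 remained called, at 0.24. The other 5 members of the processome were all lower. Nop14 and Noc4l, which bind each other, were at -0.52 ± 0.05 and -0.49 ± 0.05, Rrp9, a U3 snoRNP protein, was at -0.42 ± 0.05, Nat10, the 18S rRNA acetyltransferase, was at -0.36 ± 0.05, and Ddx10, a helicase, was at -0.32 ± 0.06.

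All 6 late 40S maturation factors were lower, with a median of -0.36. Rrp12, a repeat protein that helps carry pre-40S particles out of the nucleus, had 1790.5, 1719.8, 1548 and 1644 normalized counts in Sca1+ and 2942, 3283, 2996 and 3125 in Sca1-. The gap was wide, and its log2 fold change of -0.87 ± 0.05 (adjusted p = 2.63e-10) was the second largest decrease among the members, and the largest after GC correction. Pno1, which holds the end of 18S rRNA, was at -0.58 ± 0.06 (adjusted p = 3.01e-07), while Nob1, the endonuclease that cuts it, was at -0.35 ± 0.04 (adjusted p = 2.08e-06). Bysl and Ltv1, both removed from the pre-40S particle before it is complete, were at -0.37 ± 0.05 and -0.32 ± 0.06. Tsr1, a GTPase-like factor, had 2419, 2368, 2062 and 2233 against 2816, 2552, 2716 and 2727. These were the closest groups of the step (-0.24 ± 0.05, adjusted p = 9.39e-04), and 32.3% of the merged exon length of Tsr1 overlaps exons of Srr on the other strand, whose reads cannot be separated if the counting ignored strand.

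All 14 members of 60S assembly were lower, with a median of -0.35 and a range of -0.61 to -0.13. Wdr12, of the PeBoW complex needed to process the large-subunit rRNAs, had 763, 804, 658 and 733 normalized counts in Sca1+ and 1171, 1065, 1178 and 1155 in Sca1-. The groups were well separated (-0.61 ± 0.06, adjusted p = 1.68e-07), and it was the member of the step that fell most, except that Nop16, Nop2, Grwd1 and Ftsj3 fell more after GC correction. Its partners Pes1 and Bop1 were at -0.46 ± 0.05 (adjusted p = 4.03e-07) and -0.26 ± 0.05 (adjusted p = 1.19e-04). After GC correction Bop1 was at -0.45, the same as Pes1, and Wdr12 at -0.53. Rrp1b, a nucleolar protein of the 60S pathway, was at the other end with 2162, 2099, 2036 and 2037 against 2237, 2366, 2305 and 2311. The libraries did not overlap, but the decrease was small (-0.13 ± 0.04, adjusted p = 0.0137), and with library-total scaling its adjusted p was 0.0794. Nop16 and Noc3l (both -0.58 to -0.59) and Ftsj3, an rRNA methyltransferase (-0.54 ± 0.05), were also lower by more than 0.5, and Nop2, which methylates a cytosine of 28S rRNA, was at -0.46 ± 0.05. Gnl3 (nucleostemin) was at -0.25 ± 0.07 and its relative Gnl2 at -0.31 ± 0.05, but the call for Gnl3 was lost with limma on the normalized table (adjusted p = 0.0651). Grwd1, a chaperone of ribosomal protein L3, was at -0.39 ± 0.05. Nip7, Ddx18 and Noc2l lay between -0.31 and -0.20. GC correction moved Gnl3 to -0.14 and Noc2l to -0.31, and both stayed called.

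**Figure D3:**
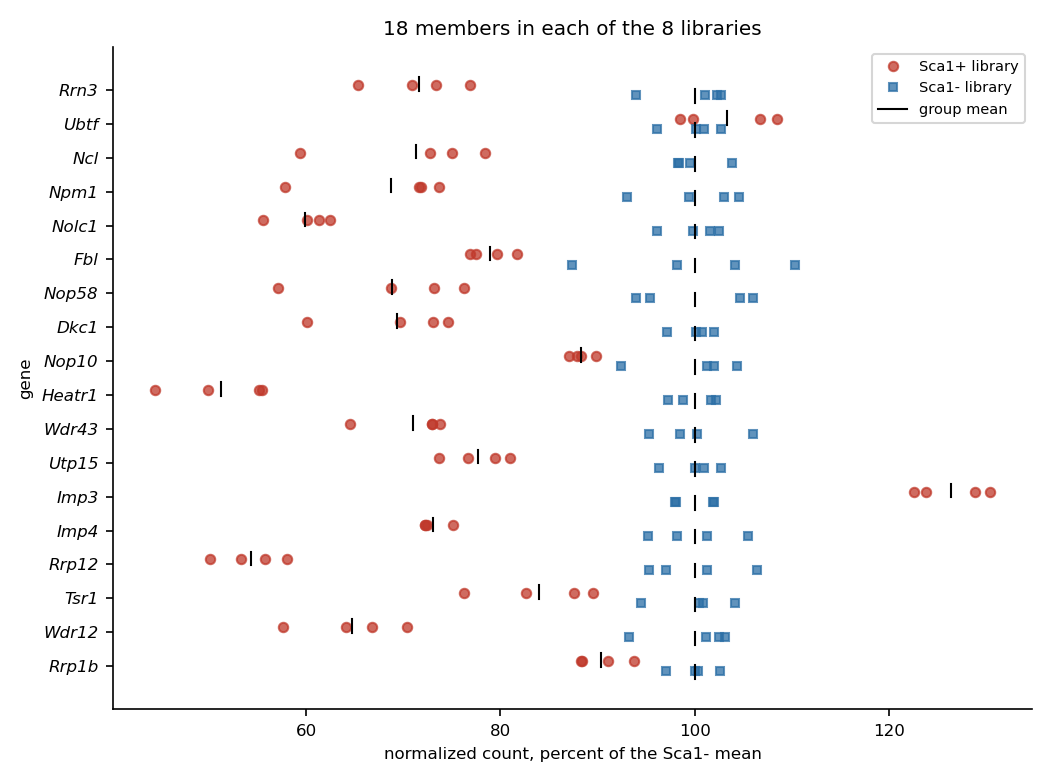
For 18 members (y axis) the normalized count in each library is shown as a percent of the Sca1- mean (x axis), with Sca1+ libraries as red circles, Sca1- libraries as blue squares and group means as black ticks. The Sca1+ libraries of Heatr1 and Rrp12 lie farthest to the left, those of Imp3 to the right of all Sca1- libraries, and 2 of those of Ubtf among its Sca1- libraries, the other 2 to their right.

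Fbl, Ddx18, Npm1, Nop56 and Pes1 share more than 10% of their 50-base words with transcripts of other genes, up to 70.4% for Fbl, so their counts are uncertain where reads with several matches were dropped or split. Exons on the other strand overlap 20.9% of the merged exon length of Noc2l, 9.37% of that of Bysl and 5.28% of that of Nop14. Exons of other genes on the same strand overlap 8.00% of the merged exon length of Nop56. The share is 3.85% for Gnl3, 2.67% for Ncl and 0.781% for Nop58. The handling of such reads is not given in the sources used here.

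Subunits of one complex did not all differ by the same amount. For 22 pairs of complex partners the log2 ratio of their counts was taken within each library, which removes the library's scaling but not an effect of GC content, and compared between the groups by an exact two-sided permutation test over 70 assignments. In 11 pairs the ratio did not overlap between the groups, and these had the smallest p the design allows, 0.0286, which became 0.0571 after Benjamini-Hochberg adjustment over the 22 pairs. No pair therefore passed 0.05, for which at least 13 pairs would have had to reach the smallest p. The difference was largest for Imp3 over Imp4, whose log2 ratio was -0.63 ± 0.06 in Sca1+ and -1.42 ± 0.08 in Sca1- (mean ± SD, n = 4 each), a difference of 0.79 ± 0.05 (SE). Heatr1 over Utp15 was at 0.92 ± 0.09 and 1.53 ± 0.04, a difference of -0.61 ± 0.05, and Heatr1 over Wdr43 at -0.92 ± 0.09 and -0.45 ± 0.05, a difference of -0.48 ± 0.05. Within the same t-UTP complex Wdr43 over Wdr75 differed by 0.01 ± 0.06 and its groups overlapped (exact p = 0.886). In the polymerase, Polr1a over Polr1b was at 1.38 ± 0.05 in Sca1+ and 1.69 ± 0.05 in Sca1-, a difference of -0.31 ± 0.03, whereas Polr1b over Polr1e differed by -0.04 ± 0.04 (exact p = 0.371). In PeBoW, Bop1 over Wdr12 differed by 0.36 ± 0.10, and in the H/ACA particle Dkc1 over Nop10 differed by -0.35 ± 0.09, both without overlap. The difference between the GC-corrected fold changes of the 2 genes, which was not tested, was 0.07 for Bop1 over Wdr12, so that most of that difference was lost, and -0.33 for Dkc1 over Nop10. It was 0.71 for Imp3 over Imp4, -0.66 for Heatr1 over Utp15, -0.53 for Heatr1 over Wdr43 and -0.30 for Polr1a over Polr1b.

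**Figure D4:**
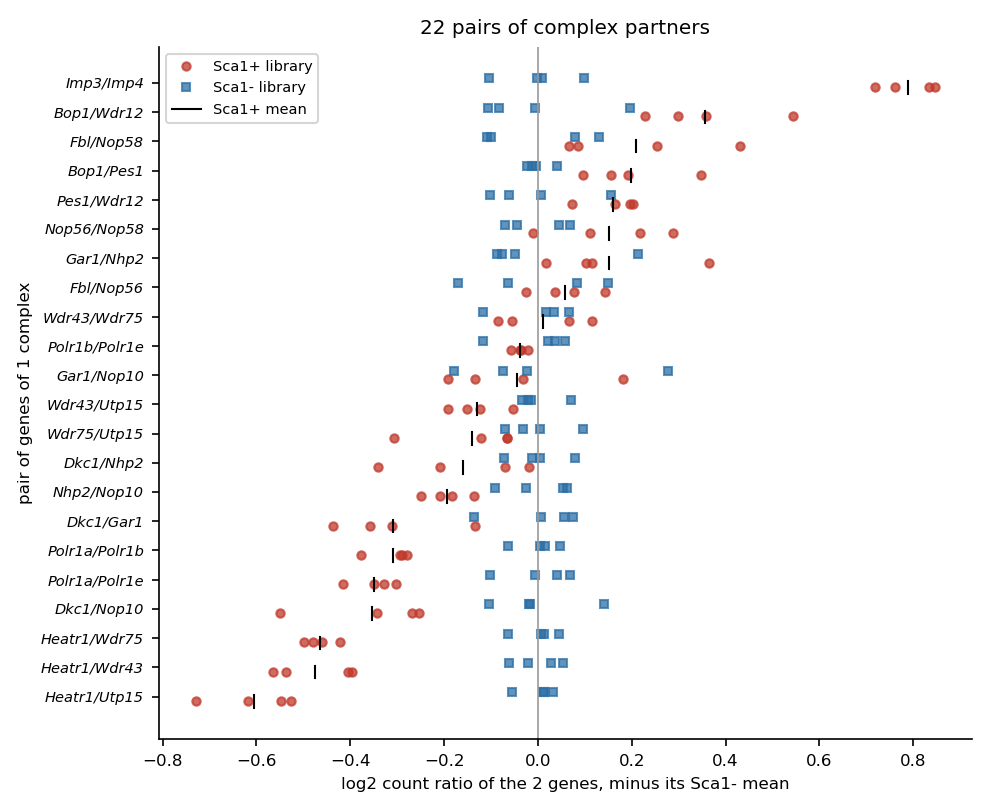
For 22 pairs of genes of 1 complex (y axis), the log2 ratio of their counts in each library is shown minus its Sca1- mean (x axis), with red circles for Sca1+, blue squares for Sca1- libraries and black ticks for the Sca1+ mean. Imp3/Imp4 lies farthest right, with a mean of 0.79, and Heatr1/Utp15 farthest left, with -0.61, while Wdr43/Wdr75 sits on 0.

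Of 117 other ribosome biogenesis factors 114 were tested. Of these 86 (75.4%) were lower, 5 higher and 23 did not pass, with a median of -0.29. Among all tested genes 30.2% were lower and 31.3% higher. The lowest were Ddx52, a helicase of the SSU processome, at -0.82 ± 0.06 (985 ± 96.2 against 1756 ± 85.7 normalized counts, adjusted p = 7.08e-09), Las1l, the endonuclease of the second internal spacer, at -0.72 ± 0.05 (adjusted p = 1.87e-09) and Krr1, an SSU processome protein, at -0.69 ± 0.07 (adjusted p = 1.03e-07). The highest were 2 subunits of the RNA exosome, Exosc6 at 0.29 ± 0.07 (adjusted p = 0.00250) and Exosc4 at 0.23 ± 0.07 (adjusted p = 0.0129), and Taf1b, a Pol I promoter factor, at 0.29 ± 0.09 (adjusted p = 0.00988). With GC-corrected offsets Exosc6 turned to -0.16 and was called lower (adjusted p = 0.00735), Exosc4 was at 0.06 (adjusted p = 0.468), and Taf1b was at 0.36 (adjusted p = 5.76e-04).

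All of these neighbouring lists except the proliferation genes had a negative median, where 30.2% of all tested genes were lower and 31.3% higher. Of 34 translation initiation factors 25 were lower and 2 higher (median -0.24), of 8 Pol II subunits 6 were lower (median -0.24), and of 11 Pol III subunits 6 were lower and 2 higher (median -0.17). The 82 cytosolic ribosomal proteins, the main cargo of the assembly factors, had a median of -0.09, with 34 lower (41.5%), 3 higher and 45 not called. Their depth was uneven, from 45.7 (Sca1+) and 63.4 (Sca1-) mean normalized counts for Rps27 to 27639 and 33912 for Rpl4. Sequence that these genes share with other genes was not examined, so some of their counts may be incomplete and the list's median is uncertain. Among 9 snoRNA host genes 3 were lower and 3 higher, near the shares of all tested genes. Of 5 subunits shared by the polymerases 2 were lower, too few to set against a share. The 22 proliferation genes had a median of 0.08, with 2 lower and 8 higher, the latter near the share of all tested genes. None of these lists was tested against the members.

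**Figure D5:**
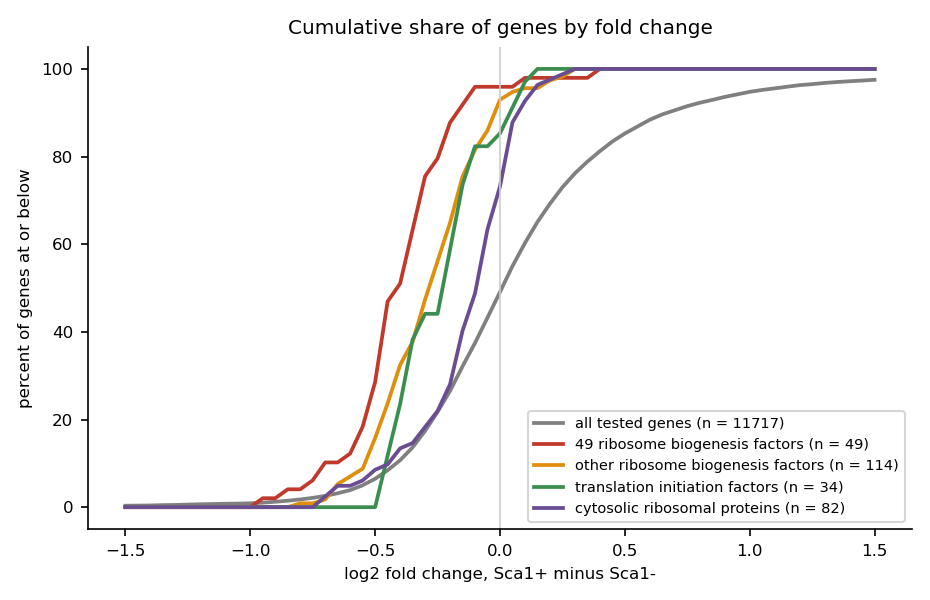
The percent of genes (y axis) with a log2 fold change (Sca1+ minus Sca1-) at or below the value on the x axis is drawn for the 49 members, 3 other lists and all 11717 tested genes. The curve of the 49 members lies left of the others over most of its range, and that of the 82 ribosomal proteins nearest to all tested genes.

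Myc itself was lower in Sca1+, at 4236 ± 169 against 5199 ± 144 normalized counts, a log2 fold change of -0.28 ± 0.04 (adjusted p = 2.10e-05). Mxd4, which encodes a repressor that competes with MYC for their common partner MAX, was higher by 1.13 ± 0.19 (72.7 ± 14.0 against 33.3 ± 8.68, adjusted p = 4.66e-05). Mxi1, a gene of the same family as Mxd4, was at 0.15 ± 0.07 and did not pass the test (adjusted p = 0.0619). Mycl was lower by 0.51 ± 0.07 (adjusted p = 3.49e-06). Of the 11 tested genes of this network 2 were lower, 5 higher and 4 not called, where 30.2% of all tested genes were lower and 31.3% higher.

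MYC and MAX bind the E-box CACGTG, and the RefSeq promoters (GRCm38.p6, from 250 bases before to 50 after the start) were searched for it on both strands, on which it reads the same. An entry was found for 44 members, not for Bop1, Fbl, Gnl2, Npm1 and Rrp12. The E-box was present in 11 of the 44 (25%), in 8.09% of all 27025 genes with an entry and in 12.0% of the 9167 of these that were tested. The sites lay mostly after the start. Of the 44, 8 members (18.2%) held it within the 50 bases after the start, where 1.28% of all genes and 1.89% of tested genes did, and 3 members (6.82%) within the 250 bases before it, where 6.86% and 10.1% did. The division of the window was chosen after the share before the start was seen. The 11 sites are shown because they are what these members share, each as 30 bases read 5′ to 3′ on the gene's strand with the E-box in capitals. For Rrn3 the nearer of its 2 sites is given.
Rrn3: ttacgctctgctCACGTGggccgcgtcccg
Nop2: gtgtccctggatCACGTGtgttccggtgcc
Imp4: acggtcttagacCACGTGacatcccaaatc
Pes1: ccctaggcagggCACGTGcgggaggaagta
Wdr43: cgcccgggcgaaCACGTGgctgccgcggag
Tsr1: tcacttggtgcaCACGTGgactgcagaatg
Ltv1: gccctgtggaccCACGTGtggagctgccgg
Grwd1: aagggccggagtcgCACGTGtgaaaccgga
Utp20: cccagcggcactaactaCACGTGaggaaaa
Pno1: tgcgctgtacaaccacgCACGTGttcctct
Mybbp1a: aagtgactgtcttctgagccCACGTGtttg

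These windows lie at Rrn3 chr16:13780639-13780668 (plus strand), Nop2 chr6:125131811-125131840 (plus strand), Imp4 chr1:34439696-34439725 (plus strand), Pes1 chr11:3963965-3963994 (plus strand), Wdr43 chr17:71616220-71616249 (plus strand), Tsr1 chr11:74898092-74898121 (plus strand), Ltv1 chr10:13193092-13193121 (minus strand), Grwd1 chr7:45830740-45830769 (minus strand), Utp20 chr10:88826765-88826794 (minus strand), Pno1 chr11:17211540-17211569 (minus strand) and Mybbp1a chr11:72441347-72441376 (plus strand). The E-box began 121, 60 and 48 bases before the start in Imp4, Nop2 and Rrn3. In the other 8 it began between base 3, in Pes1, and base 41, in Mybbp1a, of the transcribed sequence, counted from the RefSeq start. All 11 members with an E-box were lower in Sca1+, with a median log2 fold change of -0.46 and a range of -0.78 (Utp20) to -0.24 (Tsr1). Of the 33 with an entry and no E-box 30 were lower, with a median of -0.37. Among the largest decreases, Utp20 held the E-box, Heatr1, Nolc1 and Ddx21 did not, and Rrp12 had no entry. Whether the E-box bears on the decreases was not tested.

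The motif CCGGAAGT, bound by factors of the ETS family and searched on both strands, was found in 10 of the 44 (22.7%), against 4.31% of all genes and 9.72% of tested genes. For these 10 members the log2 fold changes ran from -0.95 (Heatr1) to -0.11 (Polr1e, not called). The next largest decrease was -0.47 (Rrn3). Whether this motif bears on the decreases was not tested. The motif, in capitals, is shown for Heatr1, with the largest decrease before GC correction, at chr13:12395348-12395377. It is also shown for Nhp2 at chr11:51619739-51619768. Both windows are on the plus strand. In Heatr1 and Nhp2 it began 16 and 23 bases before the RefSeq start. Both windows lie within the gene spans of the GENCODE annotation, which begin farther upstream.
Heatr1: gtagtgagaagCCGGAAGTtcctatgaggc
Nhp2: cacttgaaaacCCGGAAGTgatgtcggagg

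TATAAA, the TATA box, was found on either strand in 2 of the 44 (4.55%), against 15.7% of all genes and 8.32% of tested genes. A match to these letters is a description of the sequence and does not show that a factor was bound in these cells.

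Across the 49 members the log2 fold change had a Spearman correlation of -0.26 with merged exon length and of 0.25 with GC content, and across 11616 tested genes of -0.0039 and 0.30, where the genes share the same 8 libraries. The members had a median GC content of 50.3% and the tested genes of 50.9%. After correction for GC content the members' median was -0.42, with 45 lower and 1 higher.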

How the data were processed

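RNA of 4 Sca1+ and 4 Sca1- fractions was made into TruSeq libraries and sequenced on a NextSeq instrument. The submitters' processing notes name cutadapt 1.16, STAR 2.5.3a and GRCm38/mm10; the counting tool, annotation, strand setting and treatment of reads with several matches are not given in the sources used here. The authors deposited raw counts of 16341 genes and a table of 15372 genes whose values (signal) equal the deposited counts divided by DESeq2 size factors, checked here; these are the normalized counts. Symbols and exons came from GENCODE M21.

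Counts were tested with edgeR 4.0.16 (TMM, filterByExpr, quasi-likelihood, 2-sided, no covariate) in R 4.3.3 over 11717 genes, called at a Benjamini-Hochberg adjusted p under 0.05. The test was tried on simulated data. Alternatives used DESeq2 1.42.0, limma 3.58.1, other scalings, filters, thresholds, GC-corrected offsets, a replicate block and each library left out. Values per library are given for the members with the lowest and highest fold change of each step and for Ncl, Npm1 and Fbl. They are also given for members called against the majority, members not called and the 3 most different pairs. Other genes named are Ly6a, Myc, Mxd4, Mxi1 and the 3 lowest and 3 highest called other factors with a mean of at least 100 normalized counts. The cell type markers, nuclear RNAs, Mycl and the ribosomal proteins named were chosen from their lists after their values were seen. Members and lists were chosen with earlier results of these data known. Intervals and depth cover counting and replicate error only.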

Additional observations from a re-analysis of the deposited data

Results flagged for a closer look

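Over 144 groups of 4 libraries (49 members, Ly6a and 22 pair ratios in each fraction), 6 had 1 library farther from the rest than Dixon's 95% critical gap, where chance alone gives about 7.2. In Sca1+ replicate 3, Npm1 was at 7388 normalized counts (9156 to 9414 in the other Sca1+ libraries), Wdr43 at 3179 (3596 to 3636) and Pes1 at 2648 (2957 to 3003). Imp4 was at 1335 in Sca1+ replicate 1 (1284 to 1288). The log2 count ratio of Gar1 to Nhp2 was -1.74 in Sca1- replicate 1 (-2.04 to -2.002), and that of Polr1a to Polr1b was 1.31 in Sca1+ replicate 2 (1.40 to 1.41).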

How the results depend on the processing

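Of 980 values of single members under alternatives, 931 kept their direction and side of the threshold, 47 lost the call, 1 gained it and 1 changed sign; 33 of the 47 losses came from the fold threshold named next. A threshold of 0.5 on the absolute log2 fold change left 14 members lower, 0 higher, and 1666 genes higher and 734 lower in all. Library-total scaling gave 2 members higher (Imp3, Ubtf). GC correction turned Ubtf to -0.046. Leaving out 1 library gave 45 to 46 members lower and 1 higher, with members' medians of -0.46 to -0.39. The median log2 fold change of shared polymerase subunits turned to 0.00909 under upper-quartile and 0.022 under library-total scaling, and lay between -0.104 and 0.027 with 1 library left out. The ratio of Gar1 to Nop10 lay between -0.120 and 0.048 and that of Wdr43 to Wdr75 between -0.029 and 0.042 with 1 library left out. The share of members with CACGTG was 6.82% in the 250 bases before the start alone, and the 50 bases after the start alone held CCGGAAGT in 4.55% and TATAAA in 0.00% of members. Replicate numbers did not pair the libraries (correlations of deviations from -0.15 to 0.10); a replicate block gave 3605 genes higher and 3452 lower, and 46 members lower and 1 higher, and sign permutation within numbers cannot go below 0.125 for the pair ratios. The difference of GC-corrected fold changes, added after seeing the data, turned Bop1/Pes1 to -0.0034, Fbl/Nop56 to -0.070, Fbl/Nop58 to -0.020, Dkc1/Nhp2 to 0.043 and Wdr43/Wdr75 to -0.0098. GC correction moved 5 members by over 1.5 times (Bop1, Noc2l, Gnl3, Nop10, Ubtf). The causes were not tested. Scaling moved the median of all genes by at most 0.04 (log2). With 4 libraries a group, standard errors of 0.04 to 0.07 limit what single members can show.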
